A study of Saccharomyces cerevisiae with 7 samples.

Results

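The comparison described here set wild-type yeast taken 1 h after a switch to SL medium against wild-type yeast in YPL medium, by ChIP-seq of the histone demethylase Rph1. It used 4 of the 7 libraries of the series, chosen by their labelled genotype and medium, and all 731 peaks of the deposited table. The group after 1 h in SL, a synthetic minimal lactate medium, had 2 libraries. The group in YPL, a rich medium of yeast extract and peptone with lactate as carbon source, also had 2 libraries. The other 3 libraries were also in YPL. Of these, 2 were of a strain that lacks ppm1, the methyltransferase of protein phosphatase 2A, and 1 was of an Rph1 S412A strain. All 3 entered the fit. The ppm1 libraries helped to estimate its spread and also served to sort peaks into classes. The S412A library, alone in its group, has no replicate and adds nothing to the spread between libraries. All cells were Saccharomyces cerevisiae of the CEN.PK background, and all groups, controls included, carried Rph1 with an HA epitope tag, and no untagged library is analysed here. The labels of the 2 SL libraries name different components of that medium, and they were treated as 1 medium. The labels do not say whether replicates were separate cultures, so the spread between libraries may be technical. The p-values rest on a spread pooled over peaks and over the SL, YPL and ppm1 groups, not on that of a peak's own SL and YPL libraries.

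Rph1 is a JmjC-domain enzyme that removes methyl groups from lysine residues of histone H3, and it also binds DNA through zinc fingers and represses genes of the stress response and of autophagy. Rich medium supplies amino acids, whereas cells moved to a minimal medium make methionine and cysteine from sulfate. In such a shift yeast turns up amino acid and sulfur assimilation genes and turns down ribosomal protein genes. Rph1 ChIP signal over a gene is a measure of tagged Rph1 cross-linked to that stretch of chromatin, not of the transcript.

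Each value is the deposited signal of a peak, which was read from the values as the reads in that peak, scaled to 22000000 per library. Implied library totals were 13808893 and 20499295 reads in SL, against 15445453 and 19258711 reads in YPL. Peaks held 24.1% and 19.7% of the implied reads in SL, against 21.7% and 22.9% in YPL, and the group means of 21.9% ± 3.12 and 22.3% ± 0.892 (SD, n = 2 each) were closer than the SL libraries were to each other (two-sided exact permutation test, p = 1, where the smallest p this design allows is 0.333). The fewest implied reads in any peak of these 4 libraries were 1010, a counting error of 3.15%. Peaks were 1083 to 10360 bp wide with a median of 2528 bp. Division by that width gave the signal per kb, which allows peaks of different width to be ranked. All peaks together covered 2162.8 kb. The level of reads outside peaks was not computed, so a low signal per kb cannot be told apart from background.

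Rph1 signal rose at some peaks and fell at others at 1 h in SL, and more peaks fell than rose over all libraries, though not without SL library 2. Of 731 peaks, 438 (59.9%) passed limma's moderated test on log2 signal at a Benjamini-Hochberg adjusted p of 0.05, 170 of them higher in SL (23.3%) and 268 lower (36.7%). The median log2 difference over all peaks was -0.09, with a 5th to 95th percentile range of -0.87 to 0.84. Peaks that rose had a median log2 difference of 0.57 and peaks that fell one of -0.59. A change above 1 on the log2 scale was seen at 23 peaks and one below -1 at 15, and all of these passed the test. The SL and YPL libraries did not overlap at 577 peaks (78.9%), with both SL libraries above both YPL libraries at 244 (33.4%) and below them at 333 (45.6%).

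The SL libraries differed between themselves. SL library 1 lay above SL library 2 at 634 of 731 peaks, at 169 of the 170 peaks that rose and at 212 of the 268 that fell, and it also had the larger share of reads in peaks. The part of that share in the changes was not tested. Without SL library 1, 112 peaks rose and 339 fell. Without SL library 2, 219 peaks rose and 209 fell, and the median log2 difference was 0.0098. Without YPL library 1 the numbers were 86 and 163, and without YPL library 2 they were 88 and 133. The log2 differences of library pairs that share no library correlated across peaks at r = 0.915 for the same-numbered pairs and 0.971 for the crossed pairs, a description over 731 peaks that are not independent replicates.

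**Figure D1:**
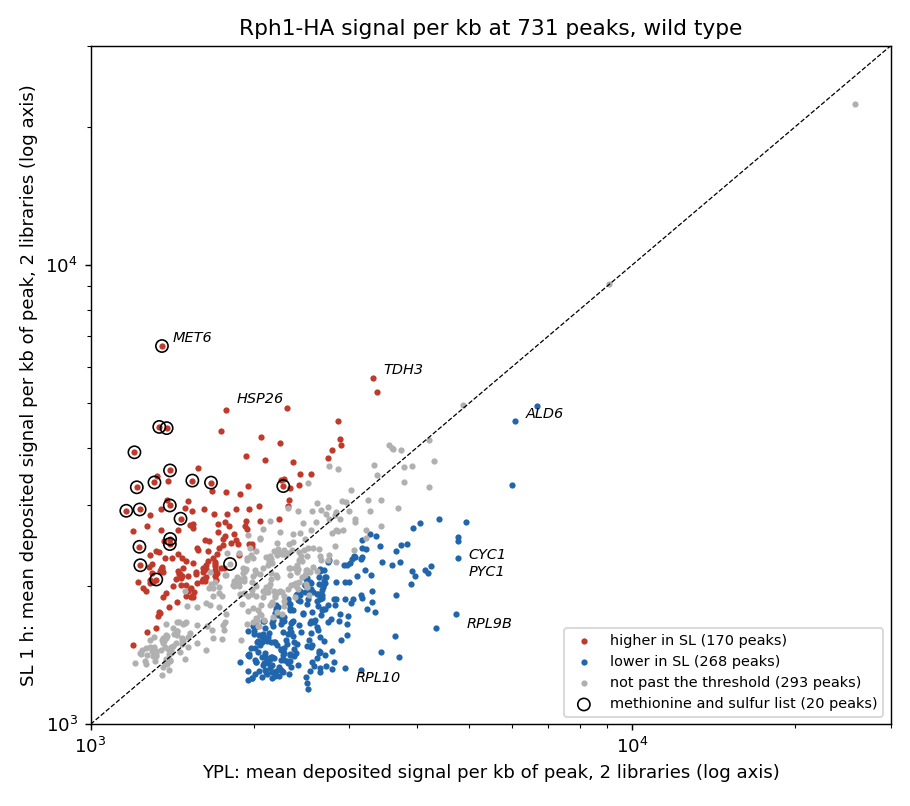
Mean Rph1 signal per kb of each of the 731 peaks after 1 h in SL against that in YPL, both axes logarithmic. Colours mark peaks higher in SL (170), lower in SL (268) and not past the threshold, the dashed line marks equal signal, and circles mark the 20 sulfur peaks, of which MET6 had 6663 per kb in SL and 1355 in YPL.

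The highest rises lay over genes of methionine and sulfur assimilation. Gene names were placed on peaks by hand, as set out under the processing. The MET6 peak (chromosome V, 339080 to 343976, build sacCer2) covers the gene of methionine synthase, the last step of methionine formation. It had a signal of 40449 and 24806 in the 2 SL libraries, against 6743 and 6525 in the YPL libraries. The 2 SL libraries were far above both YPL libraries, with a wide gap between the SL libraries themselves. Its log2 difference was 2.26 with a standard error of 0.20 (limma, Benjamini-Hochberg adjusted p = 3.8e-27), the largest of all 731 peaks. Per kb it averaged 6663 ± 2259 in SL and 1355 ± 31.5 in YPL (SD, n = 2 each), which placed it 3rd of 731 in SL and 675th in YPL. In the ppm1 and S412A libraries, which grew in YPL, it had a signal of 7489.8 and 7429.5 in ppm1 and 6919 in S412A, close to the wild-type YPL values.

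Sulfate uptake and reduction were represented from the membrane to sulfide. The peak over SUL2, a high-affinity sulfate permease (chromosome XII, 322695 to 327429), had a signal of 17880 and 13192 in SL, against 5851 and 5677 in YPL, a log2 difference of 1.41. That over SUL1, the other sulfate permease, differed by 0.92. Both permease peaks had SL libraries above all YPL libraries. The peaks over MET3 (ATP sulfurylase) and MET16 (PAPS reductase) differed by 0.99 and 0.84. The peak over MET5, one subunit of sulfite reductase (chromosome X, 678334 to 683859), had a signal of 29576 and 19508 in SL, against 7602 and 7200.2 in YPL, a log2 difference of 1.70. The peak over MET10, the other subunit (chromosome VI, 211796 to 217106), had 27916 and 18976 in SL, against 7643 and 7037 in YPL, a log2 difference of 1.65. The 2 subunit genes lie on different chromosomes and their peaks had almost the same size of change. MET1 and MET8, which make the siroheme cofactor of sulfite reductase, differed by 1.23 and 0.83.

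Peaks over genes for the formation of methionine, S-adenosylmethionine and cysteine rose as well. The peak over MET2, homoserine O-acetyltransferase, had a signal of 18043 and 13204 in SL, against 5985 and 6211 in YPL, a log2 difference of 1.34. The S-adenosylmethionine synthetase genes SAM2 and SAM1 differed by 1.33 and 0.81. MET13, a methylenetetrahydrofolate reductase gene, differed by 1.11. CYS3 (cystathionine gamma-lyase) differed by 1.08 and STR3 (cystathionine beta-lyase) by 0.97. The SL libraries lay above the YPL libraries at each of these peaks.

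Uptake of methionine and its derivatives gave both a large and a small change. The peak over MUP3, a low-affinity methionine permease (chromosome VIII, 25306 to 28522), had a signal of 15041 and 10119 in SL, against 4048 and 3706 in YPL, a log2 difference of 1.67. The peak over MMP1 and MHT1, for the uptake and use of S-methylmethionine, was the weakest of all 731 per kb in YPL and 83rd in SL, with a log2 difference of 1.31. SAM3, an S-adenosylmethionine permease, differed by 0.63. The peak over MUP1, the high-affinity methionine permease, had 7335 and 5810.4 in SL, against 5357 and 5294 in YPL. MUP1 did not pass the test (log2 difference 0.29, limma adjusted p = 0.0795), although its libraries did not overlap, and it passed without SL library 2 (adjusted p = 0.0033).

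Of the 24 listed genes of methionine and sulfur metabolism, 21 were placed, in 20 peaks. Of these peaks 19 rose, 0 fell and 1 (MUP1) did not pass, beside 23.3% of all peaks that rose. This list, like the other gene lists, was chosen with earlier results of these data known. Its genes were placed with the changes in view, so the count is a description and not a test. The SL libraries lay above the YPL libraries at 20 of 20, beside 33.4% of all peaks. The median log2 difference of the 20 was 1.10, against -0.09 over all peaks. Their median rank by signal per kb was 62 in SL and 665.5 in YPL. The genes left out, MET17, STR2 and SAM4, could not be placed with certainty, and that choice was made with the values in view. The peak nearest the remembered place of STR2 (chromosome X, 662930 to 664939) fell, with a log2 difference of -0.54, and the peaks on either side of the remembered place of MET17 differed by 0.29 and 0.12 and did not pass. The count of 19 of 20 therefore leaves out a candidate that goes the other way. The MET14 peak, with a log2 difference of 0.52, also covers the centromere of its chromosome, and it did not pass without SL library 1 (adjusted p = 0.098) or without either YPL library (0.16 and 0.12).

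**Figure D2:**
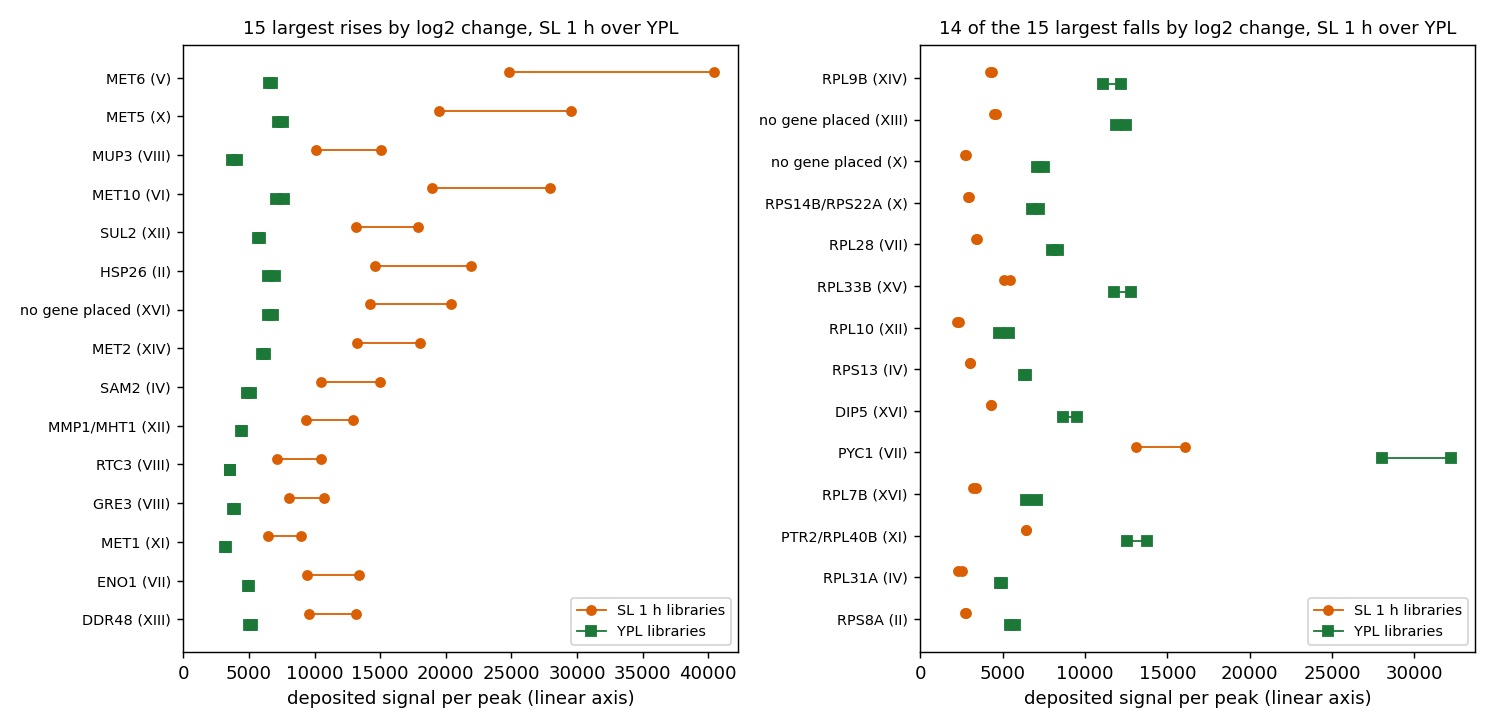
Deposited signal of the 15 named rises and 14 of the 15 named falls in each of the 2 SL and 2 YPL libraries on a linear axis, 1 row per peak with the 2 SL libraries (circles) above the 2 YPL libraries (squares). At all 15 rises both SL points lie to the right of both YPL points, and at the 14 falls shown both lie to the left, a condition of the naming rule.

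By the naming rule, the 15 largest rises and 15 largest falls were those among peaks past the threshold whose libraries did not overlap, so their separation is not a result. Methionine and sulfur genes held 9 of the 15 rises. Over all 15 rises, SL signal ran from 2917 to 6663 per kb and YPL signal from 1164 to 1777 per kb. In rank, the 15 stood between places 3 and 83 in SL and between places 516 and 731 in YPL. Low places in YPL and high places in SL go with the choice of the largest rises, so these ranks are a description and not a separate result.

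The other 6 rises lay over 5 genes and 1 peak without a gene placed, and their genes belong to no list in common. HSP26, a small heat shock protein gene (chromosome II, 379694 to 383475), had a signal of 21914 and 14591 in SL, against 6441 and 7004 in YPL, a log2 difference of 1.41 (standard error 0.19, limma adjusted p = 2.2e-12). RTC3 differed by 1.29, GRE3, an aldose reductase gene, by 1.27, and DDR48, a gene induced by DNA damage and heat, by 1.14. ENO1, an enolase gene, differed by 1.17. A peak on chromosome XVI (127800 to 132797) over which no gene was placed differed by 1.36. At each of these 6 the SL libraries were above the YPL libraries.

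Of the 4 listed heat shock genes, 3 rose (HSP26, HSP12 and HSP104), beside 23.3% of all peaks, and SSA1 did not pass. HSP12, a membrane-associated small heat shock protein gene, had a signal of 21959 and 14561 in SL, against 8435 and 9438 in YPL, a log2 difference of 1.00. HSP104, the protein disaggregase gene, differed by 0.63, and limma's adjusted p was 0.064 without SL library 1 and 0.14 and 0.068 without YPL library 1 and 2. The peak over SSA1, an Hsp70 gene, also covers the translation elongation gene EFB1, and had 35494 and 24284 in SL, against 23060.5 and 24452 in YPL (log2 difference 0.31, limma adjusted p = 0.124). Its libraries overlapped. HSP82, the stress-induced Hsp90 gene, and SSA2, a second Hsp70 gene, were named by their rank in SL and differed by 1.04 and 0.64. SSA2 did not pass without SL library 1 (adjusted p = 0.096) or without either YPL library (0.12 and 0.081).

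Of the 6 listed glycolytic genes, 5 rose, beside 23.3% of all peaks, and FBA1 did not pass (log2 difference 0.16, limma adjusted p = 0.48). TDH3, the main glyceraldehyde-3-phosphate dehydrogenase gene, had a signal of 19037 and 12462 in SL, against 8684 and 9717 in YPL. Its log2 difference was 0.75 and it ranked 4th per kb in SL and 51st in YPL, but it did not pass without YPL library 1 (adjusted p = 0.083). ENO2, PGK1, TPI1 and CDC19, for enolase, phosphoglycerate kinase, triosephosphate isomerase and pyruvate kinase, differed by 0.83, 0.74, 0.53 and 0.48. The median of the 6 peaks was 0.64. The count rests on the libraries used, since 1 of the 6 peaks rose without YPL library 1 and 3 without SL library 1.

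Of the 15 largest falls, 10 had a ribosomal protein gene placed on them. These genes were looked for after the falls were known and at no other peak, so the 10 of 15 has no share over all peaks to be read against. The RPL9B peak (chromosome XIV, 499080 to 501544), over a gene of the large subunit, had a signal of 4362 and 4227 in SL, against 11122 and 12174 in YPL. Both SL libraries were close together and far below both YPL libraries. Its log2 difference was -1.44 with a standard error of 0.18 (limma adjusted p = 6.7e-14), the largest fall of the table. Per kb it averaged 1742 ± 38.7 in SL and 4725 ± 302 in YPL (SD, n = 2 each), 485th of 731 in SL and 11th in YPL.

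The other ribosomal protein genes among the falls came from both subunits. For the large subunit, RPL28 had a signal of 3395 and 3409 in SL, against 7965 and 8337 in YPL, a log2 difference of -1.26, and RPL33B, RPL10, RPL7B and RPL31A differed by -1.23, -1.15, -1.04 and -1.03. For the small subunit, the peak over RPS14B and RPS22A had 2943 and 2889 in SL, against 6787 and 7229.9 in YPL, a log2 difference of -1.26. RPS13 differed by -1.08 and RPS8A by -1.02. A peak over RPL40B and the peptide permease gene PTR2 differed by -1.03. The share of all ribosomal protein genes that fell is not given.

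The remaining falls described here were 2 genes and 2 peaks without a gene placed. DIP5, a permease for dicarboxylic amino acids (chromosome XVI, 39995 to 43601), had a signal of 4278 and 4314 in SL, against 8654 and 9524 in YPL. Its log2 difference was -1.08, and it was the weakest of all 731 peaks per kb in SL and 198th in YPL. PYC1, a pyruvate carboxylase gene, had 16048 and 13078 in SL, against 28070.0 and 32227 in YPL, a log2 difference of -1.05. Set against the same YPL libraries, PYC1 differed by -0.54 in the ppm1 libraries, which did not pass, and by -1.01 in the 1 S412A library. The peaks without a gene placed were on chromosome XIII (296560 to 299369) and chromosome X (138693 to 140653), with log2 differences of -1.42 and -1.41. Over the 15 falls, the median log2 difference from wild-type YPL was -0.54 in the 1 S412A library and -0.11 in the ppm1 libraries. Over all peaks these medians were -0.25 and -0.0075. The falls were picked by the same wild-type YPL libraries that are the baseline here, so lower values in other libraries are favoured by the choice. The 1 S412A library also had the smallest share of implied reads in peaks of any library, 18.6%. Over the 15 falls, SL signal ran from 1191 to 2299 per kb and YPL signal from 2513 to 4760 per kb. By rank the 15 falls stood between places 215 and 731 in SL and between places 10 and 202 in YPL. These ranks, too, go with the choice of the largest falls.

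Of the 7 listed genes of respiration and acetate use 6 were placed, in 5 peaks, of which 2 fell, a share near the 36.7% of all peaks that fell: PYC1 and the peak shared by CIT1 (mitochondrial citrate synthase) and ATO2. The peak of CIT1 and ATO2, which also covers the centromere of chromosome XIV, had a signal of 19464 and 14283 in SL, against 29309 and 33771 in YPL, a log2 difference of -0.92. PCK1, the gluconeogenic phosphoenolpyruvate carboxykinase gene, had 18943 and 12561 in SL, against 17064 and 19179 in YPL, with overlapping libraries (log2 difference -0.23, limma adjusted p = 0.317). ALD4, a mitochondrial aldehyde dehydrogenase gene, and ACS1, an acetyl-CoA synthetase gene, differed by -0.20 and 0.34 and did not pass. Without SL library 1, 4 of these 5 peaks fell. Without SL library 2, 2 fell and ACS1 rose (adjusted p = 0.000548), and ACS1 also rose with median-centred libraries (0.00315) and with quantile normalization (0.00718).

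The list of plasma membrane transport had 2 genes, and both fell, beside 36.7% of all peaks. PMA1, the proton pump of the plasma membrane, had a signal of 20955 and 15617 in SL, against 27420.5 and 30026 in YPL, a log2 difference of -0.67 (limma adjusted p = 0.00072). PMA1 did not pass without SL library 2 or without YPL library 2. The fall at DIP5, described above, passed under each of these.

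**Figure D3:**
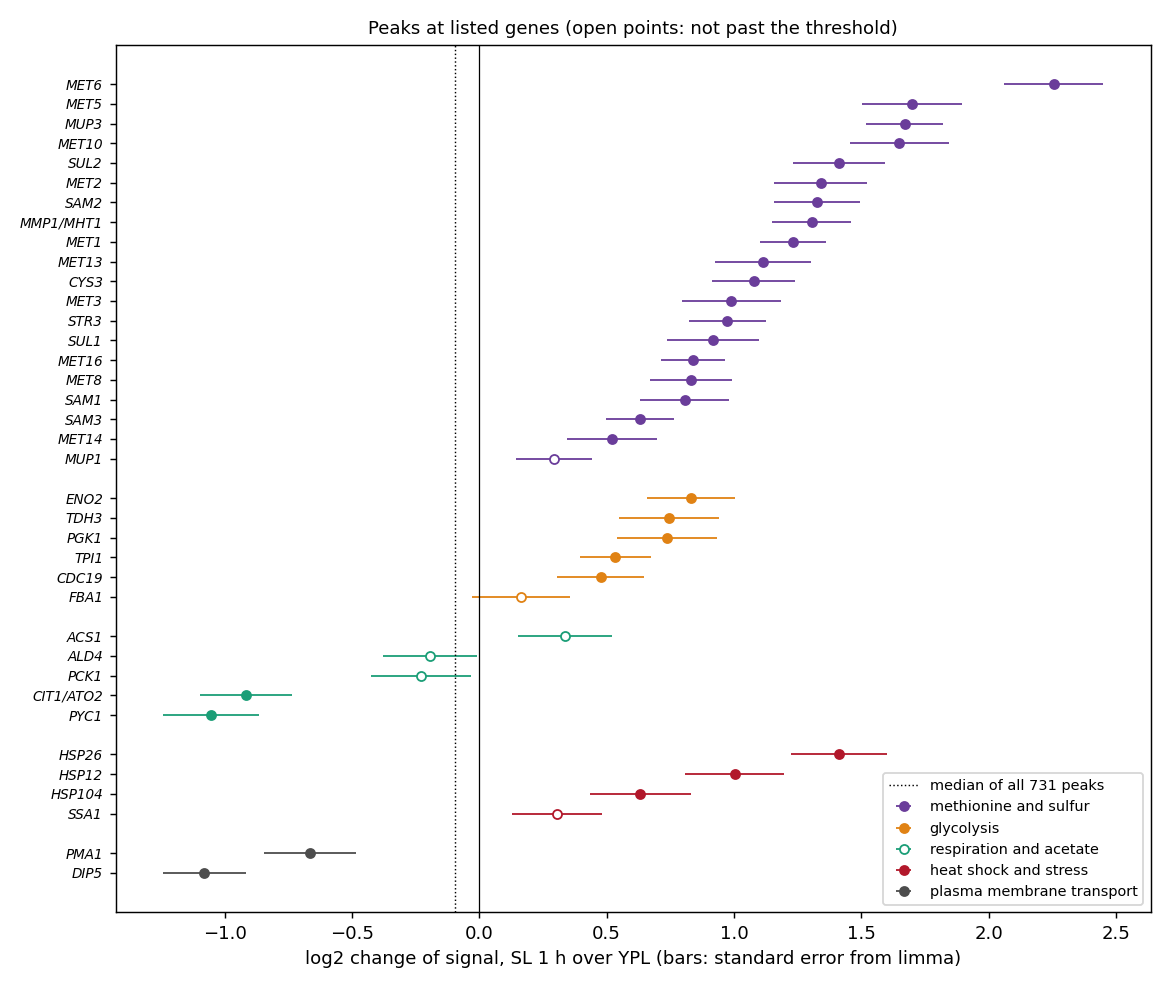
Log2 difference, SL over YPL, of every peak of the 5 gene lists, with bars for limma's standard error, open points for peaks not past the threshold and a dotted line at the median of all 731 peaks (-0.09). The 20 sulfur peaks run from 0.29 to 2.26, whereas the 5 respiration and acetate peaks run from -1.05 to 0.34.

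At the top of the table, the strongest peak was the same in both media, and its change did not pass the test. That peak (chromosome XII, 488758 to 490971), beside the ribosomal DNA repeats, had a signal of 48476 and 50972 in SL, against 54324 and 60109.9 in YPL. Its log2 difference was -0.20 (limma adjusted p = 0.204), and its reads come from sequence that may be repeated in the genome. Peaks at the ends of chromosomes III and IV were also among the 10 highest per kb in both media, and their libraries overlapped. The first of these (1 to 1616) had 17697 and 11682 in SL, against 11503 and 17770.2 in YPL. Its libraries thus differed within each medium as much as between them. A peak on chromosome XVI (643761 to 647151), over which no gene was placed, was also high in both media. It ranked 7th per kb in SL and 3rd in YPL. Its log2 difference was -0.46 (limma adjusted p = 0.033), and -0.14 without SL library 2.

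Apart from these, the leading genes changed places. In SL the 10 highest peaks per kb held MET6, TDH3, STL1 (a glycerol symporter gene), HSP82, HSP26 and SSA2. Of these 10, 6 were higher in SL, beside 23.3% of all peaks. In YPL the 10 highest held ALD6, IDH1, CIT1 with ATO2, CYC1 and PYC1. Of those 10, 7 were lower in SL, beside 36.7% of all peaks. Each 10 was picked by values that enter the difference itself, so both counts lean that way by the choice. STL1 had a signal of 24922 and 15983 in SL, against 12144 and 13911 in YPL, a log2 difference of 0.62. STL1 did not pass without SL library 1 (adjusted p = 0.13) or without either YPL library (0.18 and 0.067). IDH1, a subunit gene of isocitrate dehydrogenase, had 12906 and 10124 in SL, against 20021 and 21194 in YPL, a log2 difference of -0.85. Set against the same YPL libraries, IDH1 differed by -0.83 in the ppm1 libraries (limma adjusted p = 0.0034) and by -1.13 in the 1 S412A library. Over the 10 highest YPL peaks these median differences were -0.41 and -0.95, beside -0.0075 and -0.25 over all peaks. The same wild-type YPL libraries picked these 10 peaks, so these medians lean down by the choice as well. CYC1, for cytochrome c, had 5444 and 4305 in SL, against 8694 and 9816 in YPL, a log2 difference of -0.93. The SL libraries lay below the YPL libraries at both of these respiratory genes. ALD6, the cytosolic acetaldehyde dehydrogenase gene, was 11th in SL and 4th in YPL, and its fall was near the threshold (log2 difference -0.44, limma adjusted p = 0.0373). It did not pass without SL library 2 (adjusted p = 0.55), without either YPL library (0.11 and 0.45) or in several other fits.

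Ranked by signal per peak in place of signal per kb, wide peaks led. The 10 with the highest mean over the 4 libraries included 4 outermost peaks of chromosomes, on VIII, X, IX and II, with log2 differences of 0.02 to 0.07. The remaining 6 were the peak beside the ribosomal DNA and those over SSA1, ALD4, CIT1, PMA1 and PYC1. Chromosome ends hold repeated subtelomeric sequence, at which short reads have no single place.

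The order of peaks by signal per kb was largely different in the 2 media. Spearman's rho across peaks was 0.16 between the group means, and 0.14 to 0.18 between single libraries of different media, against 0.975 between the 2 SL libraries and 0.984 between the 2 YPL libraries. On signal per peak, where width adds to both, rho was 0.78. The median peak differed by 189 places between SL and YPL, by 23 between the SL libraries and by 20 between the YPL libraries. Of the 10% of peaks with the highest signal per kb, 73 in each medium, 22 were shared (30.1% of each), whereas the SL libraries shared 67 and the YPL libraries shared 68. Of the 73 of SL, 45 had risen and 3 had fallen. Of the 73 of YPL, 2 had risen and 47 had fallen. Over all peaks 23.3% rose and 36.7% fell. Each 73 was picked by values that enter the difference itself, so these counts lean that way by the choice. In every pairing of an SL with a YPL library, 151 peaks stood at least 200 places higher in SL and 155 at least 200 places lower. These correlations are descriptions over 731 peaks, which share libraries and depth. How these peaks were called is not known here. A table that pools peaks called in either medium would have a lower rho between media, so the value does not describe the genome outside these peaks.

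**Figure D4:**
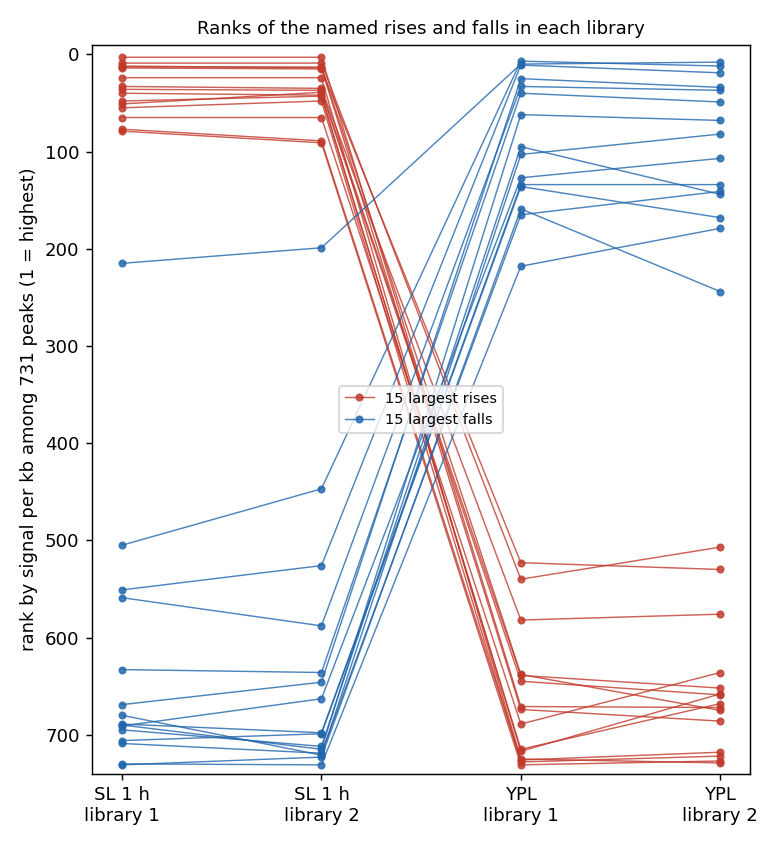
Rank by signal per kb, 1 at the top, of the 15 named rises and 15 named falls in each library, with the SL libraries on the left and the YPL libraries on the right and a line per peak. By group mean, the rises stand between places 3 and 83 in SL and 516 and 731 in YPL. The falls stand between 215 and 731 in SL and 10 and 202 in YPL. The peaks were chosen by the difference of these same libraries, so the separation goes with the choice.

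Peaks were sorted into 4 classes of near equal size, 1 for the lowest to 4 for the highest. The classes were set by signal per kb in the ppm1 libraries, which share no library with the SL and YPL difference. These libraries also grew in YPL, and their Spearman's rho with the wild-type YPL libraries was 0.92 to 0.93. The classes thus follow the level in YPL. How peaks were called is not known here, and a peak called in SL alone would be low in YPL. The counts by class are therefore a description and not a test. In class 1, of 183 peaks, 103 rose and 2 fell, with a median log2 difference of 0.36. In class 4, also of 183, 10 rose and 111 fell, with a median of -0.42. Class 2 had 44 rises and 51 falls, and class 3 had 13 rises and 104 falls. In SL the median signal per kb of the 4 classes, low to high, was 1950, 1990, 1876 and 2217, whereas in YPL it was 1407, 1985, 2317 and 2864. The rise of signal from class to class in YPL was thus small in SL, where class 3 lay below class 1. The 1st percentile of signal per kb, a level near the floor of the table, was 1243 and 1288 in SL, against 1267 and 1195 in YPL. Of the 20 sulfur peaks, 17 lay in class 1.

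**Figure D5:**
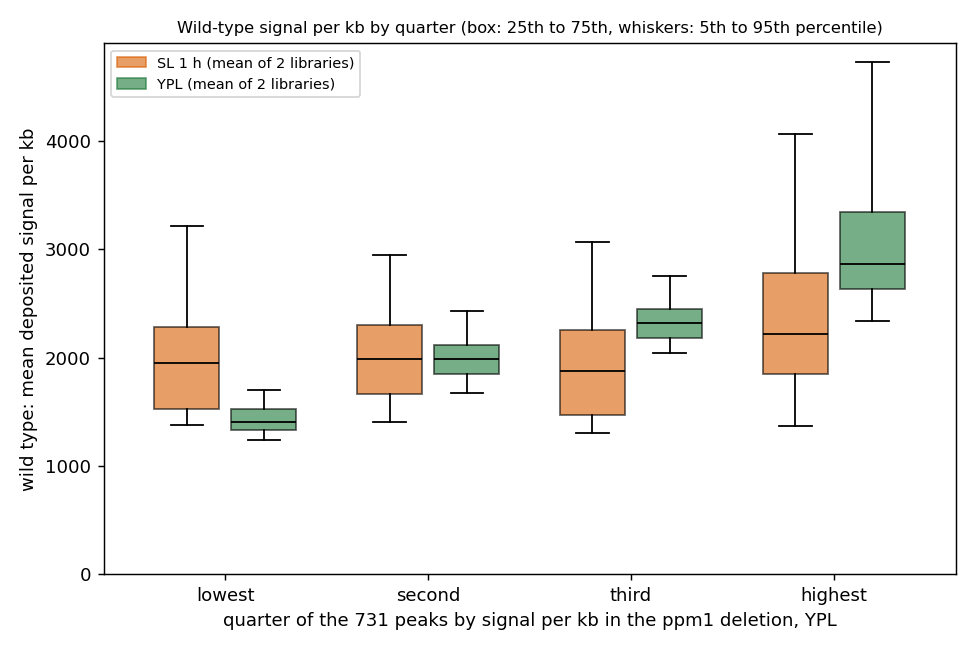
Mean wild-type signal per kb in SL and in YPL for the 4 classes of peaks by signal per kb in the ppm1 libraries, as boxes (25th to 75th percentile, line at the median) with whiskers to the 5th and 95th percentiles. Medians run from 1950 to 2217 in SL and from 1407 to 2864 in YPL.

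Width and position also went with the changes. In 4 classes of near equal size by width, narrow to wide, 31, 41, 53 and 45 peaks rose and 95, 73, 57 and 43 fell. Their median log2 differences were -0.29, -0.11, -0.02 and 0.05. The spread used by the test depended on mean signal, so the numbers that passed are not a like measure across widths. Of the 32 outermost peaks of the chromosomes, 4 rose and 3 fell, and 40.6% had libraries that did not overlap, against 80.7% of the other 699. Across chromosomes the share that rose ran from 15.8% on XIV to 33.3% on X, and the share that fell from 16.7% on VI to 45.5% on VIII. Of 261 pairs of neighbouring peaks that both passed, 135 (51.7%) changed in the same direction. That share was not set against the one that the numbers of rises and falls alone would give. It therefore says nothing on how they are arranged along the chromosomes.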

How the data were processed

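Rph1-HA ChIP-seq of 7 libraries was used. Reads were aligned with Bowtie2 to build sacCer2, per the submitters' processing notes. The sources used here name no version, peak caller, filter or use of input. The deposited table holds a signal value for each of 731 peaks. Within a tolerance of 0.001, all values of a library were whole multiples of 22000000 divided by a whole number, taken from the values alone as the library's reads. Scaling to a total leaves any difference in the share of reads in peaks in place. No spike-in scaling was applied here.

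For the differences, log2 signal (pseudocount 0) was fitted in R 4.3.3 by limma 3.58.1, with lmFit, contrasts.fit and a trended eBayes, over all 7 libraries with group as the term and 3 residual degrees of freedom. limma estimated infinite prior degrees of freedom, and the spread used for a peak therefore came from the trend over mean signal and not from its own libraries. Where the 2 SL libraries of a peak differ widely, its standard error does not carry that gap. Benjamini-Hochberg adjustment was over 731 peaks, with a threshold of 0.05. The fit was tested on simulated data. Ranks and shares were computed with pandas 2.3.3 and scipy 1.17.1. Count models were not used: the values are deposited as scaled signal, and the reads behind them are inferred from the values alone.

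Named peaks were the 15 largest rises and 15 largest falls among peaks past the threshold with no overlap of libraries, and the 10 highest by signal per kb in SL, in YPL, and by mean signal over the 4 wild-type libraries. Gene names were placed by hand from remembered approximate positions on the S288C map, whose build was not checked, against sacCer2 peaks, and with the changes in view. For 64 genes in 59 peaks, 64 symbols and chromosomes matched the RefSeq R64 table, as did the order of 139 of 139 pairs of genes on 1 chromosome. No R64 coordinate is printed. Of the 15 largest falls, 1 is not reported here by itself. Cells were CEN.PK while the build is of S288C, so sequence that differs between them can move a peak. The members and lists were chosen with earlier results of these data known.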

Additional observations from a re-analysis of the deposited data

How the results depend on the processing

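No named or listed peak past the threshold changed sign under any alternative run, but 9 that did not pass did. The median log2 difference over all peaks, -0.09, was 0.0098 without SL library 2, and there more peaks rose (219) than fell (209). Over the alternatives that leave out 1 library, 221 to 451 peaks passed, 86 to 219 rose and 133 to 339 fell, against 438, 170 and 268. The median log2 difference of the highest ppm1 class ran from -0.58 to -0.26 over the same alternatives. With quantile normalization 260 peaks rose, against 296 that fell, and with median-centred libraries 244 rose and 300 fell. With classes set by signal per peak in place of signal per kb, the lowest class had a median of 0.064 and the highest one of -0.16. On signal per peak the top 10% shared 44 peaks and rho was 0.78. With a replicate block 419 peaks passed (162 rose, 257 fell), but same-numbered libraries did not deviate together (r = -0.33 between YPL and SL), so the numbers were not taken as pairs. A crossed block, chosen after seeing the data, gave 516, and ACS1 rose in it (limma adjusted p = 0.0054). Of 57 named or listed peaks past the threshold, 46 kept direction and call under every alternative run, among them the 15 named rises and the 15 named falls. The other 11 lost their call under at least 1 alternative, ALD6 among them (limma adjusted p = 0.059 with the replicate block). The sulfur list had 17 to 20 rises. The 3 comparisons with count tools were not run. With 2 libraries a group, small changes are not detectable: the smallest log2 difference that passed was 0.27.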

Other observations

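Centromeres are short sequences on which the kinetochore forms. They could be placed by hand, as the genes were, in 12 peaks, 1 on each of 12 of the 16 chromosomes. This group was chosen after its values were seen, so it is a description with no test of the group. Of the 12 peaks 10 fell in SL, beside 36.7% of all peaks, and 1 rose, the peak on XI that also covers the sulfur gene MET14. The peak on IV had a log2 difference of -0.36 and did not pass (limma adjusted p = 0.103). The SL libraries lay below the YPL libraries at 11 of the 12, and the median log2 difference was -0.84. The peak at the centromere of III, 1447 bp wide, had a signal of 3123 and 2727 in SL, against 5441 and 5862 in YPL, a log2 difference of -0.95. That of XIII, 1622 bp wide, had 6323 and 4469.9 in SL, against 9197 and 10306 in YPL, and stood 50th per kb in SL and 5th in YPL. In the ppm1 libraries, set against the same YPL libraries, these 12 peaks differed by -0.30 to -0.06 on the log2 scale. In the 1 S412A library, set against the same YPL libraries, their median difference was -0.48 and 5 were lower by limma's test. Over all 731 peaks the median was -0.25 and 128 were lower. The SL and S412A differences share the same YPL libraries, by whose values the group was also seen when chosen, so they are not separate results. Over the alternatives, 9 to 11 of them fell.

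Outside the naming rule, chosen after their values were seen, are JEN1 and MET32. The peak over JEN1, the lactate permease gene, had a signal of 13725 and 10517 in SL, against 22253 and 25380.5 in YPL, a log2 difference of -0.98. The peak over MET32, a transcription factor gene of the sulfur pathway, had 5237 and 3785 in SL, against 2139 and 1974 in YPL, a log2 difference of 1.12. Both differences passed in limma's test.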
